A study of Rattus norvegicus with 16 samples.

Results

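The left ventricle of rats that had undergone sham surgery was followed by small RNA sequencing at 2, 4, 5 and 7 weeks after the operation. These are the control libraries of a study of the heart after 5/6 nephrectomy (5/6Nx), an operation that removes most of the kidney mass. They were taken as the columns named sham A and sham B in the 4 weekly count tables, which gives 8 of the 16 libraries, 2 for each week. The other 8 libraries came from 5/6Nx rats at the same times. All animals were male Sprague Dawley rats on 0.4% Dyets chow, were operated on at 10 weeks of age, and so were 12, 14, 15 and 17 weeks old at weeks 2, 4, 5 and 7. RNA of 2 to 3 rats was pooled for each library. No unoperated rats and no sham rats from before week 2 were analysed here, so recovery from surgery, age and time on the diet ran together. Each week came as a table of its own and the labels name no batch, so week cannot be told apart from any batch of libraries. Week 7 also stood apart in form. Its library names alone carry the prefix AK, whose meaning is not given, and its list of entries was shorter than those of weeks 2, 4 and 5. The comparison of week 7 with the earlier weeks coincides with these differences. No label states that the pools of a week held different rats, and p-values therefore reflect only variation between these pools.

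MicroRNAs (miRNAs) are short RNAs that guide Argonaute proteins to messenger RNAs, mostly through the seed, bases 2 to 8 of the miRNA, and lower the stability or translation of those messages. Heart muscle cells are rich in miR-1 and miR-133a and carry miR-208a, miR-208b and miR-499 in introns of myosin genes, while other abundant heart miRNAs come from vessel wall, endothelium, fibroblasts and blood. Small RNA counts of a whole ventricle hold all of these cells together, and fewer cells of a type cannot be told apart from less RNA per cell.

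The miRNAs on which the comparisons of weeks turn are shown first, with mature sequences from RefSeq (rat assembly GRCr8) and the seed in capitals. Of the 317 rat miRNAs listed in all 4 tables, 286 had a mature sequence there, and miR-150-5p, miR-30b-5p and miR-151 are only named. The first set holds miRNAs that were higher at week 7. Its first 2 members share their seed, and miR-3571 is the reverse complement of miR-1-3p over 21 bases.
miR-146a-5p: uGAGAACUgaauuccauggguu
miR-146b-5p: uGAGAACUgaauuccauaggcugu
miR-24-3p: uGGCUCAGuucagcaggaacag
miR-10a-5p: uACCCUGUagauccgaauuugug
miR-100-5p: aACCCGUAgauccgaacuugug
miR-191a-5p: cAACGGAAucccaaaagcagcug
miR-1-3p: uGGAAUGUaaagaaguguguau
miR-3571: uACACACUucuuuacauuccaua
The second set holds miRNAs that were lower at week 7, ordered by shared seed, with relatives of the same seed beside them for comparison.
let-7b-5p: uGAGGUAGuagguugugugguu
let-7c-5p: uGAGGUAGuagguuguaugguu
miR-29c-3p: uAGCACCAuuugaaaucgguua
miR-29a-3p: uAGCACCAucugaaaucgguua
miR-30c-5p: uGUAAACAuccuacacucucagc
miR-30a-5p: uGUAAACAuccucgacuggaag
miR-497-5p: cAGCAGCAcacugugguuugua
miR-195-5p: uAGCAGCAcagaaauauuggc
miR-145-5p: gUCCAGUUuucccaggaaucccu
miR-434-3p: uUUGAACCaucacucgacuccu
miR-3543: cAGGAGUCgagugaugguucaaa
In GRCr8 miR-146b-5p lies at chr1:255144874-255144897 (plus strand) and miR-146a-5p at chr10:28350053-28350074 (minus strand), so that the shared seed belongs to genes on different chromosomes. miR-1-3p lies at chr18:2160339-2160360 (minus strand) and miR-3571 at chr18:2160340-2160362 (plus strand), on opposite strands of the same locus within the span of Mib1. miR-434-3p at chr6:134330451-134330472 (plus strand) and miR-3543 at chr6:134330451-134330473 (minus strand) mirror each other in the same way within the span of Rtl1. miR-145-5p at chr18:57370033-57370055 (minus strand) lies within the span of Carmn together with miR-143-3p, and miR-191a-5p at chr8:118142641-118142663 (plus strand) within that of Dalrd3. Whether the authors counted reads by strand is not given in the sources used here. Reads of a miRNA and of its mirror entry therefore cannot be told apart. Counts of calls take every entry of the tables, so that a couple can count as 2.

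The 6 libraries of weeks 2, 4 and 5 held 1600062 to 2795801 rat miRNA counts each, and week 7 pools A and B held 1073616 and 672077. The week 7 pools thus stood apart in depth: 228 and 212 of the 317 miRNAs had 10 or more counts there, against 270 to 298 in the earlier pools. Of the reads, 91.3% to 92.7% mapped at week 7 and 81.1% to 88.5% before, per the authors' mapping table. Levels are given in CPM, each count taken relative to the library's total of rat miRNA counts after scaling by edgeR's TMM factors. The 9 measured heart muscle miRNAs summed to between 52240 and 68366 CPM in the 8 sham libraries. The 11 measured miRNAs of a list for other organs (liver, brain, pancreas, epithelia) summed to between 1825 and 3265 CPM, and miR-192-5p was the most abundant of them. That sum was not level: it was 1825 to 2084 CPM at week 2, 2450 to 2551 at week 4, 2752 to 2934 in week 5 and 3248 to 3265 in week 7. At week 7, 6 of the 11 were higher and 5 were lower.

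The 2 pools of week 5 differed from each other far more than those of any other week. Over 133 miRNAs with a mean of 100 CPM or more, the median absolute log2 ratio of pool A to pool B was 0.42 at week 5, against 0.12 at week 2, 0.13 at week 4 and 0.17 at week 7. At week 5, 18 of these miRNAs differed by more than 2-fold, and in the other weeks 0 did. miR-143-3p, an abundant smooth muscle miRNA, had 79019 CPM in pool A and 273672 in pool B. miR-191a-5p had 34200.3 and 9336 CPM, and miR-126a-5p, from an endothelial gene, 49686 and 13873 CPM. The difference ran in opposite directions for these miRNAs, and the 2 largest gaps were those of miR-532-5p (23.4 and 205 CPM) and miR-423-3p (42.8 and 229 CPM).

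**Figure D1:**
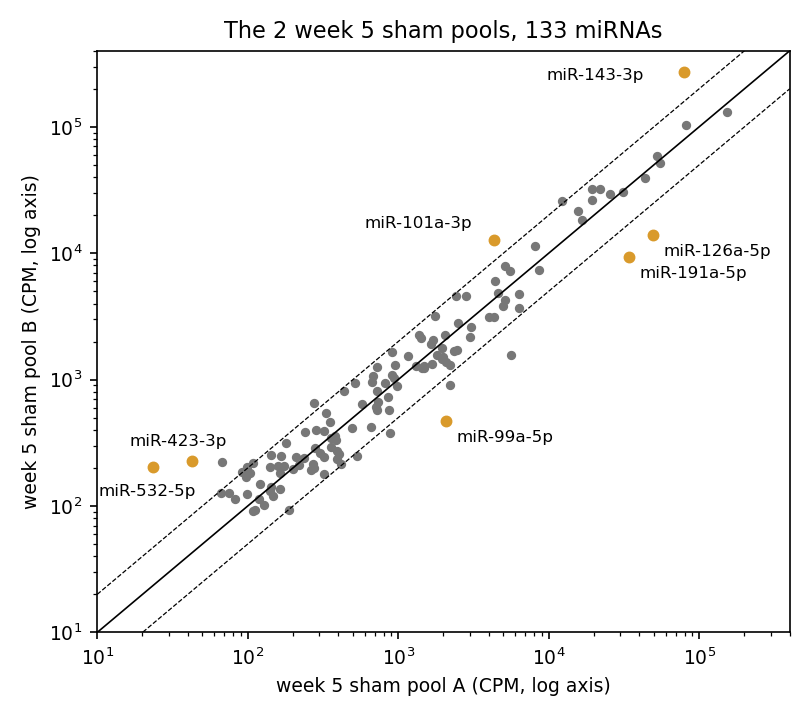
Level in CPM of 133 miRNAs in week 5 sham pool B against pool A, both on log axes, with a solid line for equal levels and dashed lines for a 2-fold difference. The 7 coloured miRNAs are among the 18 outside the dashed lines.

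Set among all 16 libraries, the library labelled week 5 sham pool A was not closest to the other pool of its group. Its log2 CPM correlated best with 5/6Nx pool B of week 4 (r = 0.993 over 306 miRNAs), and its r with week 5 sham pool B was 0.979, the seventh highest of 15. Week 5 sham pool B correlated best with 5/6Nx pool B of week 5 (r = 0.993). In 12 of the 16 libraries the other pool of the group was the closest. The remaining exceptions were week 4 sham pool B and week 4 5/6Nx pool A, which were closest to each other (r = 0.996). The 5/6Nx pools of week 5 differed from each other by a median absolute log2 ratio of 0.090. The labels were kept as deposited, and the counts of calls in each comparison are also given without week 5 pool A and without pool B. Counts over lists, the order of pools and the comparison with 5/6Nx libraries fitted alone used all 8 sham libraries.

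On principal components of log2 CPM, the first, with 41.2% of the variance, ran from -5.94 and -5.51 for the week 2 pools to 8.32 and 9.25 for the week 7 pools. The pools of weeks 4 and 5 lay between -2.68 and -0.57. The second, with 21.8% of the variance, set week 5 pool A (-7.61) apart from week 5 pool B (2.14), and the week 4 pools lay between them at -3.38 and -3.12.

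**Figure D2:**
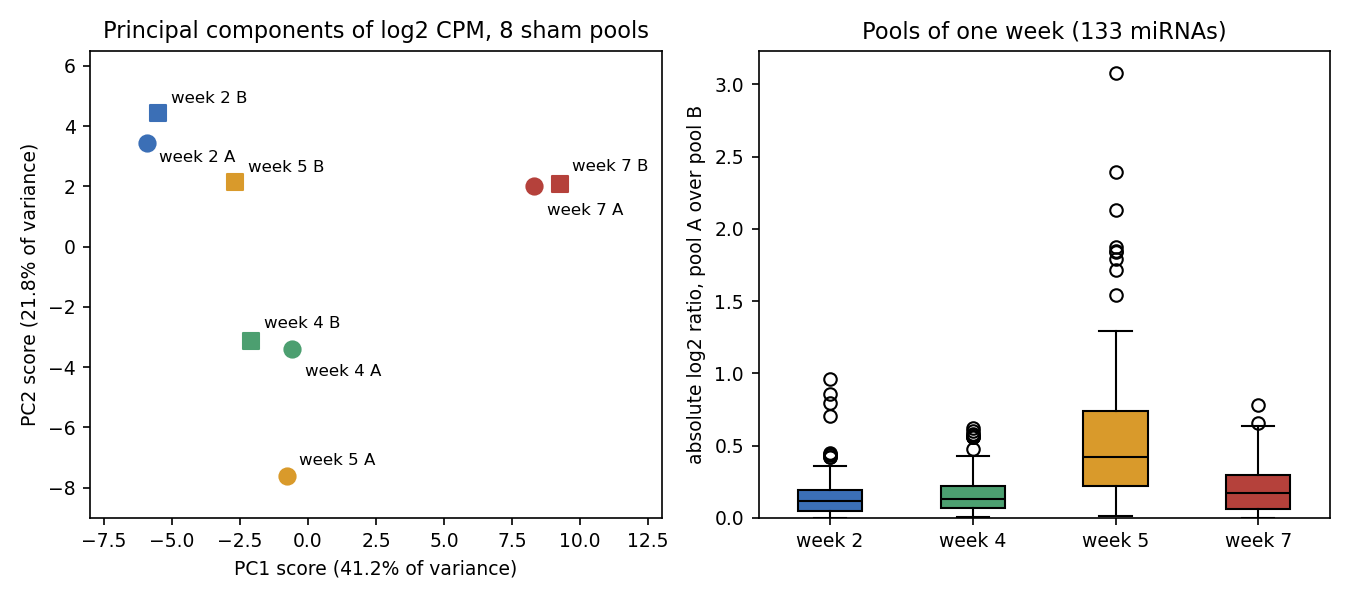
Left, scores of the 8 sham pools on the first 2 principal components of log2 CPM (circles pool A, squares pool B). Right, absolute log2 ratio of pool A to pool B for 133 miRNAs in each week (box, quartiles with the median; whiskers, 1.5 times the interquartile range). The week 7 pools stand apart on the first component and the week 5 pools differ most from each other, with a median of 0.42.

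At week 7 the sham ventricle was compared with the mean of its 3 earlier weeks. This comparison was chosen with an earlier principal component of these data known, on which week 7 stood apart. Its calls are therefore not a finding separate from that component. miR-146b-5p was 3.10-fold, miR-1-3p 2.02-fold and miR-10a-5p 1.87-fold higher than in the earlier weeks, and all 3 were also higher at week 4 than at week 2 in both pools. miR-145-5p was 2.30-fold, miR-30b-5p 2.25-fold, miR-150-5p 1.88-fold and let-7b-5p 1.69-fold lower. Of the 9 heart muscle miRNAs and of the 10 most abundant miRNAs, 1 each passed the test. In a fit to the 8 sham libraries with a mean for each week, 299 miRNAs passed the count filter and 43 differed between weeks, which is 14.4% of those tested (edgeR quasi-likelihood F test over 4 weeks, adjusted p under 0.05). Among weeks 2, 4 and 5 alone 4 differed, 1.34% of those tested. Week 7 against the mean of the 3 earlier weeks gave 53 miRNAs, 17.7% of those tested, of which 26 rose (8.7%) and 27 fell (9.03%). Of the 53, 4 were mirror entries whose partner was also called, which leaves 49. The split depended on scaling and on single libraries: it was 32 risen and 22 fallen with RLE size factors in place of TMM, 33 and 19 without mirror entries, 25 and 12 without week 2 pool A, 31 and 13 without week 4 pool A and 21 and 14 without week 4 pool B. In 23 of the 53 both week 7 pools lay above all 6 earlier pools, in 25 both lay below them, and in 5 the ranges overlapped. Over all 299 miRNAs, both week 7 pools lay above the earlier ones for 13% and below for 17.4%. Week means rose at every step for 5.02% and fell at every step for 7.36%. Pools of successive weeks did not overlap for 66.2% between weeks 2 and 4, 30.8% between weeks 4 and 5 and 49.5% between weeks 5 and 7. The change exceeded 2-fold for 30 of the 53, and 22 of them had a mean level under 100 CPM.

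These counts rested on single libraries. The 53 calls at week 7 became 103 without week 5 pool A, 93 without week 5 pool B, 37 and 33 without week 2 pools A and B, 44 and 35 without week 4 pools A and B, and 3 without either week 7 pool. Of the 53, 52 were among those called without week 5 pool A. miR-146b-5p and miR-3571 passed in all 8 fits that left out 1 library, miR-1-3p in all but the fit without week 7 pool B, and miR-10a-5p in all but the fit without week 7 pool A. A further 21 lost the call only where a week 7 pool was left out. The 43 differences between weeks became 153 without week 5 pool A, 136 without week 5 pool B, 10 and 7 without week 2 pools A and B, 15 without week 4 pool B, and 4 and 5 without week 7 pools A and B. The 4 among the earlier weeks became 124 and 99 without week 5 pools A and B, 0 without either week 2 pool, 2 without week 4 pool B and 1 without either week 7 pool.

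miR-146b-5p had the smallest adjusted p of all miRNAs at week 7. miR-146a is switched on by NF-kB, and both lower the signalling adaptors IRAK1 and TRAF6, a feedback on inflammatory signalling. miR-146b-5p had 243 and 208 CPM in the week 2 pools, 536 and 483 at week 4, 673 and 955 in week 5, and 1459 and 1354 in week 7. Its week means rose at every step, the pools of successive weeks did not overlap, and both week 7 pools lay above all others. The log2 change of week 7 against the earlier weeks was 1.63 ± 0.16 (SE, adjusted p = 0.000148), and it ranged over 1.60 to 1.82 when single libraries were left out. miR-146a-5p had 695 and 709.7 CPM in the week 2 pools, 1766 and 1320.3 at week 4, 2222 and 1306 in week 5, and 2603 and 2733 in week 7. It was lowest at week 2 and highest at week 7, with the week 5 pools spread over the range between, and its log2 change at week 7 was 1.10 ± 0.19 (SE, adjusted p = 0.00461). That call was lost without either week 7 pool.

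miR-24-3p, which is made from the same transcripts as miR-23 and miR-27, had 763 and 628 CPM in the week 2 pools, 1917 and 2064 at week 4, 2068 and 1371 in week 5, and 2807 and 2768 in week 7. Both week 2 pools lay below all others and both week 7 pools above, with a log2 change at week 7 of 1.06 ± 0.17 (SE, adjusted p = 0.00251). Its neighbours in those transcripts did not pass: the log2 change at week 7 was 0.37 (adjusted p = 0.137) for miR-27b-3p, 0.081 (adjusted p = 0.827) for miR-27a-3p and 0.033 (adjusted p = 0.911) for miR-23b-3p. miR-10a-5p, which lies in the Hoxb gene cluster, had 14809.6 and 16419 CPM in the week 2 pools, 25042 and 20446 at week 4, 31342 and 30265 in week 5, and 45485 and 37419 in week 7. It was the most abundant miRNA with a rise at every step, the pools of successive weeks did not overlap, and its log2 change at week 7 was 0.90 ± 0.16 (SE, adjusted p = 0.00461). The call of miR-24-3p was lost without either week 7 pool, and that of miR-10a-5p without week 7 pool A.

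miR-191a-5p had 12492 and 11400.3 CPM in the week 2 pools, 22563 and 22521 at week 4, 34200.3 and 9336 in week 5, and 49701 and 40330.2 in week 7. Both week 7 pools lay above all earlier ones, but week 5 pool B lay below every other pool and pool A above those of weeks 2 and 4. Its log2 change at week 7 was 1.32 ± 0.33 (SE, adjusted p = 0.0208), while miR-425-5p, made from the same gene, had -0.11 (adjusted p = 0.841). miR-100-5p had 893 and 782 CPM in the week 2 pools, 2185 and 1713 at week 4, 2217 and 906 in week 5, and 2736 and 2536 in week 7. Week 5 pool A was at the level of week 4 and pool B near that of week 2, both week 7 pools were highest, and there was a log2 change at week 7 of 0.95 ± 0.25 (SE, adjusted p = 0.0271). Calls of both were lost without either week 7 pool, and that of miR-100-5p also without week 2 pool B. With all entries of the tables, loci and other species included, miR-191a-5p did not pass (adjusted p = 0.0642, edgeR). miR-125b-2-3p, miR-127-3p, miR-351-5p, miR-151-3p and miR-192-5p also rose, by 1.01, 0.91, 0.67, 0.60 and 0.52 on the log2 scale, with both week 7 pools above all earlier pools (adjusted p between 0.00673 and 0.0288). All 5 calls were lost without either week 7 pool, and those of miR-127-3p, miR-151-3p and miR-192-5p also without week 2 pool B.

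**Figure D3:**
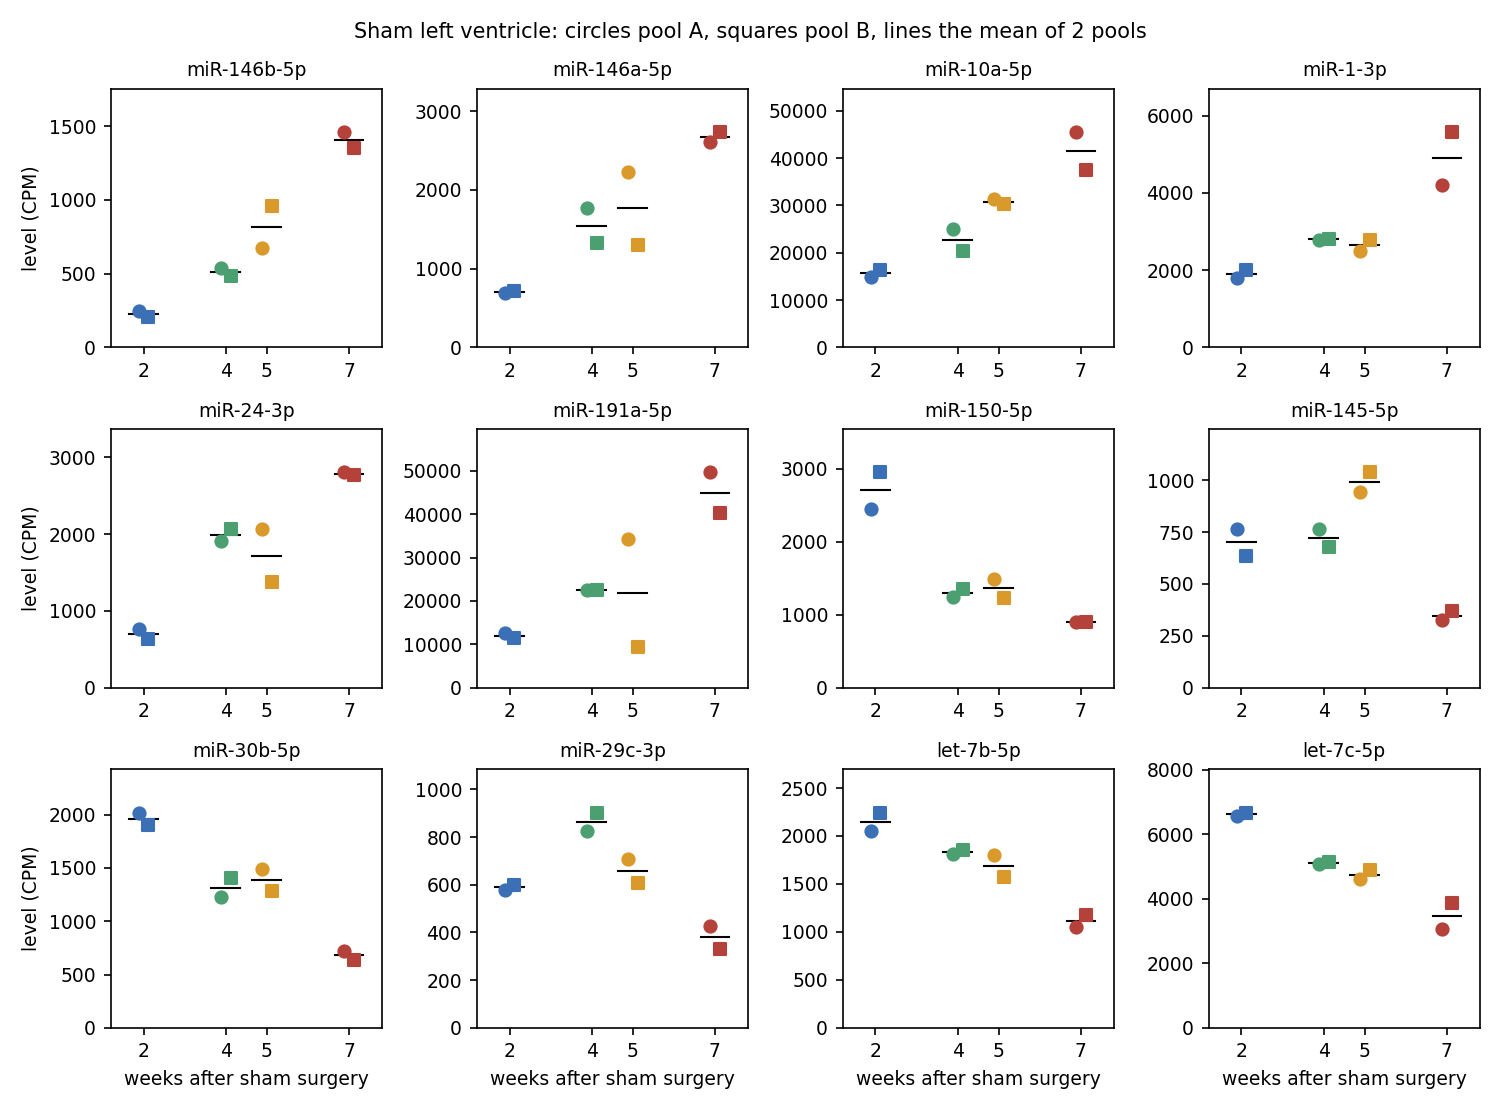
Level in CPM of 12 miRNAs in the 8 sham pools by week after surgery (circles pool A, squares pool B, lines the mean of 2 pools; each vertical axis starts at 0). In the first 6 panels both week 7 pools lie above all earlier pools, and in the last 6 both lie below them.

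miR-1-3p, which restrains growth and ion channel genes in heart muscle, had 1799 and 2002 CPM in the week 2 pools, 2789 and 2813 at week 4, 2502 and 2794 in week 5, and 4207 and 5576 in week 7. Both week 2 pools lay below all others and both week 7 pools above, while the pools of weeks 4 and 5 overlapped. The log2 change at week 7 was 1.02 ± 0.15 (SE, adjusted p = 0.00148), and its mirror entry miR-3571 had 1.22 ± 0.15 (SE, adjusted p = 0.000654). The other heart muscle miRNAs did not pass. miR-133a-3p, from the same transcripts as miR-1, had 46691 and 59746 CPM in the week 2 pools, 56238 and 57269.9 at week 4, 52247 and 58604 in week 5, and 60480.3 and 54514 in week 7, and its pools overlapped in all weeks with a log2 change at week 7 of 0.061 (adjusted p = 0.855). miR-208a-3p, from the intron of the fast myosin gene Myh6, had 796 and 810.5 CPM in the week 2 pools, 1078 and 1179.6 at week 4, 858 and 734 in week 5, and 730.2 and 472 in week 7, and both week 7 pools lay below all others (log2 change -0.57 ± 0.19, adjusted p = 0.0541). miR-499-5p, from the intron of Myh7b, gave -0.44 ± 0.15 (SE, adjusted p = 0.0547) and also lay below all earlier pools at week 7. miR-208b-3p, from the intron of the slow myosin gene Myh7, gave -0.15 ± 0.16 (SE, adjusted p = 0.615), and its pools overlapped.

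Several miRNAs with few counts changed by larger factors. miR-184 had 17.5 and 19.4 CPM in the week 2 pools, 47.2 and 22.6 at week 4, 3.29 and 30.8 in week 5, and 87.1 and 88.3 in week 7, a log2 change at week 7 of 1.99 ± 0.52 (SE, adjusted p = 0.0237), and a low value in week 5 pool A. miR-21-3p, the passenger arm of miR-21, had 47.2 and 33.7 CPM in the week 2 pools, 46.6 and 62.3 at week 4, 5.92 and 19.9 in week 5, and 84.7 and 78.5 in week 7 and a change of 1.43 ± 0.35 (SE, adjusted p = 0.0187), again with its lowest value in week 5 pool A. The guide arm miR-21-5p, which is raised in scarring hearts, had 4993 and 4718 CPM in the week 2 pools, 4009.7 and 4419 at week 4, 4387 and 6031 in week 5, and 4221 and 4190.0 in week 7 and overlapping pools (log2 change -0.17 ± 0.16, adjusted p = 0.533). miR-7a-5p, miR-6328 and miR-6314 rose by 1.74, 1.57 and 1.15 on the log2 scale, with week 7 levels between 9.29 and 37.1 CPM. All calls in this paragraph were lost without either week 7 pool, that of miR-6314 also without week 2 pool B, and that of miR-184 with all entries (adjusted p = 0.0687, edgeR).

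Among the miRNAs that fell, miR-150-5p, which is abundant in mature lymphocytes and lowers the transcription factor Myb, had 2453 and 2952 CPM in the week 2 pools, 1238 and 1358 at week 4, 1489 and 1235 in week 5, and 894 and 897 in week 7. Both week 2 pools lay above all others and both week 7 pools below, with a log2 change at week 7 of -0.91 ± 0.16 (SE, adjusted p = 0.00461). Of the other miRNAs of white blood cells, miR-142-3p (-0.82 ± 0.29, SE, adjusted p = 0.0668) and the myeloid miR-223-3p (-0.48 ± 0.26, SE, adjusted p = 0.233) did not pass. The 10 miRNAs of the leukocyte list summed to between 8071 and 9841 CPM in the 8 libraries. The week 7 pools (9541 and 9644 CPM) lay inside the range of the earlier ones. That sum includes miR-146a-5p and miR-146b-5p, which rose, so it does not show that the other members stayed level. At week 7, 7 of the 10 were lower and 3 were higher. The part of white blood cells in the result of miR-150-5p was not tested. The call of miR-150-5p was lost without either week 7 pool.

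miR-145-5p, a smooth muscle miRNA made from the same transcript as miR-143, had 765 and 636 CPM in the week 2 pools, 764 and 677 at week 4, 943 and 1038 in week 5, and 324 and 368 in week 7. The week 5 pools were the highest and both week 7 pools lay below all others, with a log2 change of -1.20 ± 0.17 (SE, adjusted p = 0.00137) against the earlier weeks and -1.52 ± 0.20 (SE, adjusted p = 0.00229) against week 5. miR-143-3p, the miRNA with the highest mean level, had 188841 and 147116 CPM in the week 2 pools, 201219 and 186966 at week 4, 79019 and 273672 in week 5, and 332701 and 290314 in week 7. Its week 7 pools lay above all others, week 5 pool A was the lowest, and the log2 change at week 7 was 0.80 ± 0.34 (SE, adjusted p = 0.129), which did not pass. The call of miR-145-5p at week 7 was lost without either week 7 pool.

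miR-29 restrains collagens and other matrix genes, and miR-30, which is rich in heart muscle, restrains the matrix factor CTGF. miR-30c-5p, the most abundant miRNA that fell, had 10087 and 12277 CPM in the week 2 pools, 8045 and 7299.5 at week 4, 8669.7 and 7312 in week 5, and 6009 and 5143 in week 7, with both week 7 pools below all others and a log2 change of -0.66 ± 0.17 (SE, adjusted p = 0.0213). miR-30b-5p had 2020.1 and 1906 CPM in the week 2 pools, 1223 and 1409 at week 4, 1492 and 1282 in week 5, and 722 and 638 in week 7, with the week 2 pools highest and the week 7 pools lowest, and a change of -1.17 ± 0.16 (SE, adjusted p = 0.00137). miR-30c-5p had the same order of week 2 and week 7 pools. The 3 relatives more abundant than both showed no such order, and their week 7 pools overlapped the earlier ones. Their change at week 7 was 0.10 (adjusted p = 0.774) for miR-30a-5p, -0.12 (adjusted p = 0.719) for miR-30e-5p and 0.23 (adjusted p = 0.337) for miR-30d-5p. miR-29c-3p had 577 and 601 CPM in the week 2 pools, 826 and 903 at week 4, 709 and 607 in week 5, and 426 and 332 in week 7, highest at week 4 and lowest at week 7, with a log2 change of -0.87 ± 0.17 (SE, adjusted p = 0.00673). miR-29a-3p gave -0.44 ± 0.15 (SE, adjusted p = 0.0626) and overlapped. Calls were lost without either week 7 pool, and that of miR-30c-5p also without any 1 of the week 2 and week 4 pools and with all entries (adjusted p = 0.0925, edgeR).

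let-7 miRNAs accumulate as cells differentiate and restrain growth genes. let-7b-5p had 2056 and 2245 CPM in the week 2 pools, 1815 and 1849 at week 4, 1799.9 and 1569 in week 5, and 1047 and 1175 in week 7, and let-7c-5p had 6552 and 6672 CPM in the week 2 pools, 5075 and 5141 at week 4, 4600.3 and 4888 in week 5, and 3068 and 3878 in week 7. In both, the week means fell at every step and the week 7 pools lay below all others, with log2 changes of -0.76 ± 0.15 (SE, adjusted p = 0.00681) and -0.65 ± 0.16 (SE, adjusted p = 0.0182). The other 6 measured members did not pass. Their changes at week 7 ran from -0.48 (adjusted p = 0.107) for let-7a-5p to -0.019 (adjusted p = 0.95) for let-7d-5p. All 8 were lower at week 7 with TMM scaling, but let-7d-5p was higher with RLE size factors or DESeq2 (0.060 in both), with all entries of the tables (0.12) and without mirror entries (0.14). let-7b-5p lost its call without either week 7 pool, and let-7c-5p without any 1 of the week 2, week 4 and week 7 pools. let-7c-5p also lost it with all entries (adjusted p = 0.0667, edgeR) and without mirror entries (adjusted p = 0.0582, edgeR). let-7a-5p, let-7b-5p and let-7c-5p share the mirror entry miR-3596a, over 22, 16 and 18 bases. miR-3596a held 422835 counts over the sham libraries, against 114935, 29853 and 86605 for those members, and was not called at week 7.

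miR-497-5p, of the miR-15 family that slows the cell cycle, had 493 and 542 CPM in the week 2 pools, 352 and 411 at week 4, 419 and 214 in week 5, and 179.9 and 175 in week 7. It fell by 1.16 on the log2 scale at week 7 (adjusted p = 0.0121), with both week 7 pools below all earlier ones, while miR-195-5p, made from the same transcript, gave -0.26 (adjusted p = 0.402). miR-434-3p, of the imprinted Dlk1-Dio3 region, had 119.9 and 112 CPM in the week 2 pools, 59.5 and 87.5 at week 4, 49.3 and 69.0 in week 5, and 31.3 and 22.9 in week 7. Its week means fell at every step, with a log2 change at week 7 of -1.53 ± 0.30 (SE, adjusted p = 0.00659), and its mirror entry miR-3543 gave -1.63 ± 0.30 (SE, adjusted p = 0.00547). The counts of miR-434-3p and miR-3543 differed by at most 1.08-fold in all 8 libraries. miR-3585-5p, on the X chromosome, had 349 and 399 CPM in the week 2 pools, 316 and 295 at week 4, 406 and 256 in week 5, and 158 and 103 in week 7 and a change of -1.35 ± 0.25 (SE, adjusted p = 0.0053), and the other arm, miR-3585-3p, gave -1.58 ± 0.37 (SE, adjusted p = 0.0173). miR-331-3p, miR-872-3p, miR-3473, miR-374-3p and miR-3559-5p fell by 1.64, 1.48, 1.45, 1.73 and 2.00 on the log2 scale, at week 7 levels between 3.27 and 24.4 CPM. miR-17-1-3p had 62 counts over the 6 earlier pools and 0 in both week 7 pools, which is at least 2.11-fold lower against a floor of 3 counts over the group (2.04 CPM). All calls in this paragraph were lost without either week 7 pool. Those of miR-3473, miR-374-3p and miR-17-1-3p were also lost without week 2 pool A or either week 4 pool, that of miR-374-3p without week 2 pool B, that of miR-872-3p without week 2 pool A and that of miR-3559-5p without week 4 pool B. With all entries the adjusted p (edgeR) was 0.0642 for miR-497-5p and miR-3473, 0.058 for miR-17-1-3p and 0.0564 for miR-872-3p. It was 0.0598 for miR-3473 with limma-voom and 0.0998 for miR-374-3p with DESeq2.

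Between weeks 2 and 4, 9 miRNAs passed, 3.01% of those tested, of which 8 rose and 1 fell, a mirror couple among the rises. The fall was that of miR-150-5p, with a log2 change of -1.06 ± 0.19 (SE, adjusted p = 0.017). The rises included miR-24-3p at 1.52 ± 0.22 (SE, adjusted p = 0.00719), miR-146b-5p at 1.17 ± 0.21 (SE, adjusted p = 0.017) and miR-146a-5p at 1.13 ± 0.25 (SE, adjusted p = 0.027). miR-34a-5p, which p53 switches on, had 60.5 and 55.3 CPM in the week 2 pools, 131 and 138 at week 4, 82.6 and 113 in week 5, and 127 and 119 in week 7, with a log2 change of 1.22 ± 0.24 (SE, adjusted p = 0.0251) and week 7 levels still above those of week 2. miR-338-3p, from an intron of Aatk, had 135 and 132 CPM in the week 2 pools, 301 and 264 at week 4, 276 and 201 in week 5, and 138 and 116 in week 7, so that its week 7 level was near that of week 2. Its log2 change at week 4 was 1.08 ± 0.23 (SE, adjusted p = 0.0251), and its mirror entry miR-3065-5p gave 1.09 ± 0.23 (SE, adjusted p = 0.0251). miR-3068-5p had 13.3 and 14.3 CPM in the week 2 pools, 46.6 and 43.6 at week 4, 44.7 and 24.2 in week 5, and 10.4 and 18.0 in week 7 and followed the same course. The remaining miRNA was miR-3556b (1.07 ± 0.23, adjusted p = 0.0251), a partial mirror of miR-29b-3p and miR-29c-3p. This comparison shares libraries with that of week 7.

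The count between weeks 2 and 4 was 89 without week 5 pool A and 84 without week 5 pool B. It was 1 without week 4 pool A and 0 without any 1 of the week 2 pools, week 4 pool B and the week 7 pools. Between weeks 4 and 5 the test gave 0 calls (edgeR), with 18 at an unadjusted p under 0.05 (6.02% of those tested), 2 calls with DESeq2 and 0 with limma-voom. Without week 5 pool A that count was 68 and without week 5 pool B it was 19. In each of those fits week 5 had a lone pool that was assumed to vary like the others. The smallest adjusted p was that of miR-21-3p, which was lower in both week 5 pools than in both week 4 pools (log2 change -2.10 ± 0.45, adjusted p = 0.186). The smallest for a miRNA higher at week 5 was that of miR-182 (1.22 ± 0.34, adjusted p = 0.276).

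Between weeks 5 and 7, 7 miRNAs passed, 2.34% of those tested, of which miR-1-3p and miR-3571 are a mirror couple. miR-21-3p rose by 2.68 ± 0.47 (SE, adjusted p = 0.0125), miR-1-3p by 0.89 ± 0.19 (SE, adjusted p = 0.0364) and miR-3571 by 1.06 ± 0.19 (SE, adjusted p = 0.0125). Falls were those of miR-145-5p, given above, miR-30b-5p (-1.03 ± 0.18, adjusted p = 0.0125), miR-3585-5p (-1.33 ± 0.28, adjusted p = 0.0342) and miR-3559-5p (-2.28 ± 0.52, adjusted p = 0.0455). The count was 79 without week 5 pool A, 65 without week 5 pool B, 3 and 2 without week 2 pools A and B, 3 without week 4 pool B and 0 without either week 7 pool. Between the first and last times, weeks 2 and 7, 48 passed (16.1%), of which 27 rose (9.03%) and 21 fell (7.02%). That count was 93 and 97 without week 5 pools A and B, 23 and 19 without week 2 pools A and B, and 14 and 17 without week 7 pools A and B.

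Of the 10 most abundant miRNAs, 1 passed at week 7, miR-10a-5p. miR-22-3p, a regulator of heart growth, had 140857 and 160562 CPM in the week 2 pools, 162082 and 173834 at week 4, 154096 and 130513 in week 5, and 199546 and 154414 in week 7 and a log2 change at week 7 of 0.21 (adjusted p = 0.515). miR-26a-5p, miR-27b-3p and miR-181a-5p gave -0.12 (adjusted p = 0.697), 0.37 (adjusted p = 0.137) and 0.34 (adjusted p = 0.228). The steadiest week means among the 50 most abundant were those of miR-25-3p, miR-133a-3p, miR-30e-5p, miR-101a-3p and miR-199a-3p. miR-25-3p stayed between 1425 and 2117 CPM in all 8 pools. In miR-101a-3p the steady mean at week 5 hid pools of 4332 and 12636 CPM. The endothelial miR-126a-3p (-0.12, adjusted p = 0.696), the red cell miR-451-5p (-0.077, adjusted p = 0.855) and the fibroblast miR-199a-5p (-0.46 ± 0.17, adjusted p = 0.0874) and miR-214-3p (-0.50, adjusted p = 0.233) did not pass at week 7 either.

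Groups of miRNAs are described by how many members passed the test over 4 weeks and by the median log2 change at week 7, beside 43 of 299 passed and a median of -0.073 over all miRNAs tested. The median over all was 0.0041 with RLE size factors, 0.044 with all entries of the tables and 0.070 without mirror entries, and the medians of lists are to be read relative to it. Of 9 heart muscle miRNAs 1 passed, miR-1-3p, and the median was -0.15. Of 18 miRNAs known to be lowered in pressure-overload hypertrophy 6 passed, with a median of -0.089: miR-1-3p rose and miR-29c-3p, miR-30b-5p, miR-30c-5p and miR-150-5p fell at week 7, and miR-29a-3p did not pass there. Of 16 known to be raised in it 4 passed, with a median of 0.15, and of these miR-24-3p and miR-222-3p rose at week 7. Of the 8 of miR-29 and miR-30, 4 passed, 3 of them as falls at week 7, with a median of -0.42. Of 11 fibroblast and profibrotic miRNAs 4 passed (median 0.21), of 10 leukocyte miRNAs 3 (-0.24) and of 6 red cell and blood miRNAs 0 (0.26). Of 5 endothelial miRNAs 2 passed (0.38), and their summed level was between 41644 and 42945 CPM at week 2 and between 48250 and 94771 CPM later. At week 7, 3 of the 5 were higher and 2 were lower. That sum includes miR-10a-5p, which rose, and miR-126a-5p, whose week 5 pools differed widely, so it does not describe the list as a group. Of 4 smooth muscle miRNAs 1 passed (0.56), and their summed level was 291212 and 333559 CPM in the week 7 pools, above the 80375 to 274971 CPM of the earlier pools, with week 5 pool A lowest. Nearly all of that sum was miR-143-3p, which did not pass at week 7. The member that passed, miR-145-5p, fell, so the sum does not describe the list as a group.

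Of 12 miRNAs of the miR-17-92 cluster and its paralogs 0 passed over 4 weeks (median -0.46), although miR-17-1-3p passed at week 7. Of 8 let-7 miRNAs 2 passed (-0.34), of 5 of the miR-15 family 1 (-0.25), and of 7 of the miR-322 cluster 1 (0.40), miR-351-5p. Of 45 miRNAs of the Dlk1-Dio3 region on the list 12 were in all 4 tables, 11 could be tested and 1 passed over 4 weeks (-0.14), miR-434-3p. At week 7 miR-434-3p fell and miR-127-3p of the same region rose. The list's summed level was 1203 and 1292 CPM in the week 7 pools against 622 to 1055 CPM before. Of the 11 members tested, 4 were higher and 7 were lower at week 7, so the sum does not describe the list as a group. Of 3 hypoxia and p53 miRNAs 1 passed (0.43) and of 11 miRNAs of other organs 2, miR-192-5p and miR-7a-5p (0.026). miR-222-3p, known from endothelium and growth control, had 72.7 and 94.4 CPM in the week 2 pools, 44.8 and 31.7 at week 4, 42.8 and 60.1 in week 5, and 77.8 and 141 in week 7, a U-shaped course with a log2 change at week 7 of 0.98 ± 0.27 (SE, adjusted p = 0.0305). That call was lost without either week 7 pool and without week 4 pool B, and with limma-voom (adjusted p = 0.0553) and all entries (adjusted p = 0.0552, edgeR).

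Ratios of 2 counts within a library do not depend on the scaling of libraries. The ratio of miR-143-3p to miR-145-5p, made from 1 transcript, was 247 and 231 at week 2, 263 and 276 at week 4, 83.8 and 264 in week 5, and 1027 and 789 in week 7. It was thus highest in both week 7 pools and lowest in week 5 pool A. miR-133a-3p over miR-1-3p gave 25.9 and 29.8 at week 2, 20.2 and 20.4 at week 4, 20.9 and 21 in week 5, and 14.4 and 9.78 in week 7, lowest in both week 7 pools. miR-24-3p over miR-27a-3p gave 0.428 and 0.417 at week 2, 0.78 and 0.761 at week 4, 0.887 and 0.814 in week 5, and 1.27 and 1.31 in week 7, with no overlap between week 2, weeks 4 and 5, and week 7. miR-30b-5p over miR-30d-5p gave 0.136 and 0.118 at week 2, 0.0836 and 0.098 at week 4, 0.0892 and 0.07 in week 5, and 0.0369 and 0.0366 in week 7, and miR-497-5p over miR-195-5p 0.892 and 1.33 at week 2, 0.449 and 0.516 at week 4, 0.484 and 0.369 in week 5, and 0.308 and 0.35 in week 7. Both were highest in the week 2 pools and lowest in the week 7 pools. miR-191a-5p over miR-425-5p gave 108 and 96.4 at week 2, 155 and 150 at week 4, 183 and 101 in week 5, and 400 and 325 in week 7, again apart at week 7. Of 18 ratios computed, 10 had both week 7 pools apart from all earlier pools, 6 above and 4 below, and 8 overlapped. Among the 8, miR-146b-5p over miR-146a-5p gave 0.35 and 0.293 at week 2, 0.304 and 0.366 at week 4, 0.303 and 0.731 in week 5, and 0.561 and 0.495 in week 7, highest in week 5 pool B. miR-30c-5p over miR-30e-5p, miR-151-3p over miR-151-5p, miR-100-5p over miR-99a-5p and let-7c-5p over let-7a-5p also overlapped, as did miR-10a-5p over miR-10b-5p, miR-208b-3p over miR-208a-3p and the 2 arms of miR-126a. The ratios were chosen with earlier results of these data known and were not tested. Several set a miRNA called at week 7 against a relative that was not called. No share over all possible ratios was computed, so 10 of 18 cannot be read as many or few.

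**Figure D4:**
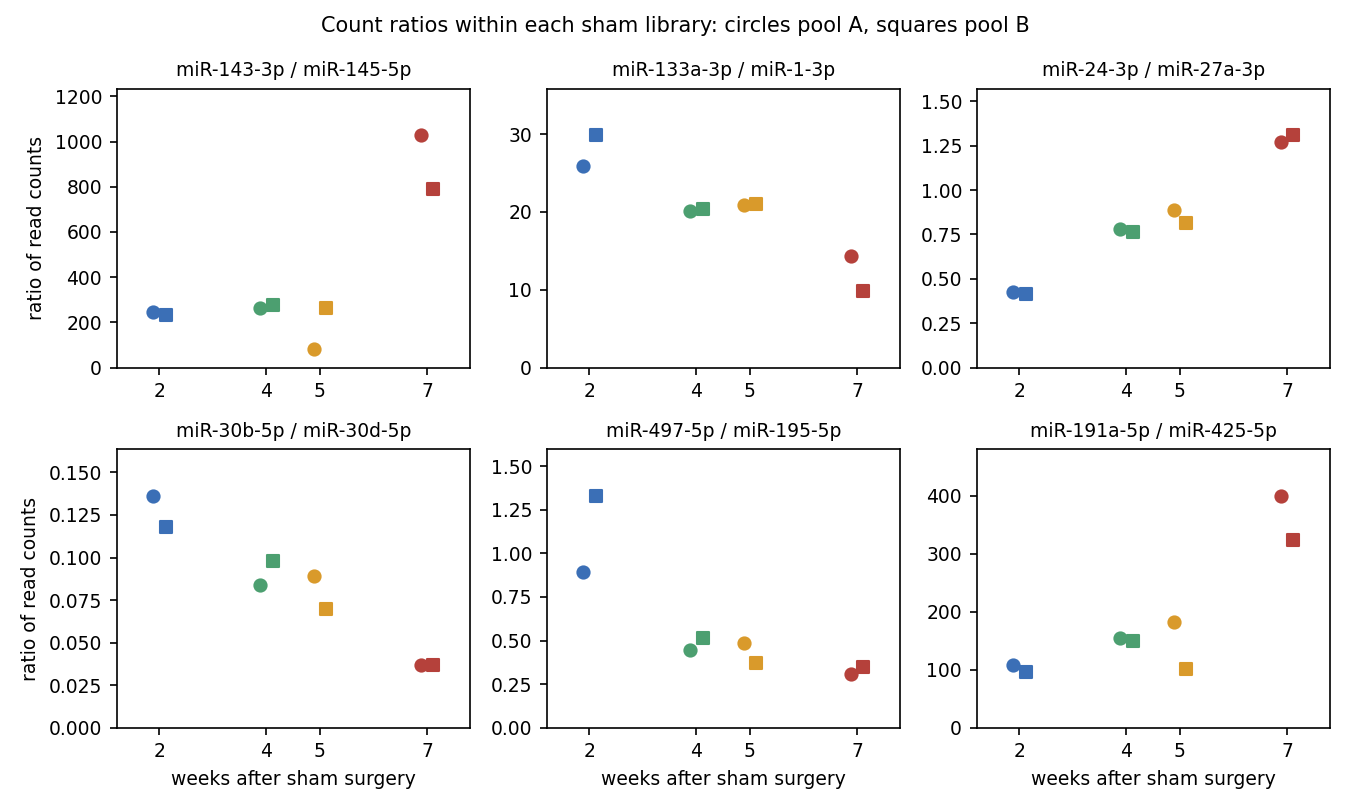
Ratio of the read counts of 2 miRNAs within each sham library by week after surgery (circles pool A, squares pool B; each vertical axis starts at 0). In the week 7 pools miR-143-3p over miR-145-5p was 789 and 1027 and miR-133a-3p over miR-1-3p was 9.78 and 14.4.

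Couples of miRNAs were compared by how far apart their week 7 changes lay, as a description without a test. The median absolute difference in log2 change at week 7 was 0.62 over all 36315 couples of miRNAs with a sequence, 0.34 over 101 couples that share a seed and 0.088 over 24 mirror couples. Couples with a shared seed include near-identical sequences whose reads may be shared, so they are not independent observations. The 73 couples formed by the 2 arms of one hairpin differed by 0.48 and the 165 couples whose hairpins lay within 10 kb on one strand by 0.56. The change at week 7 correlated across 270 miRNAs with a sequence at r = 0.13 with GC content, 0.11 with length and 0.15 with log2 mean CPM.

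The 5/6Nx libraries of the same weeks, fitted alone, gave week 7 changes that can be set beside those of sham without a shared library, although the 2 surgeries share each week's table. Across 295 miRNAs the log2 changes correlated at r = 0.69, and 221 (74.9%) had the same sign. Of the 52 miRNAs called in sham with a value in 5/6Nx, 52 changed in the same direction, and 44 passed there as well, which is 84.6% of the sham calls and 31.9% of the 138 calls in 5/6Nx. In 5/6Nx 45.8% of 301 miRNAs passed at week 7, and 57.8% differed between the 4 weeks. Changes between weeks 2 and 4 correlated at r = 0.61, and 197 of the 295 (66.8%) had the same sign. The 9 sham calls, which include the mirror couple miR-338-3p and miR-3065-5p, all had the same sign. Between weeks 4 and 5 r was 0.22, and between weeks 5 and 7 it was 0.57.

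**Figure D5:**
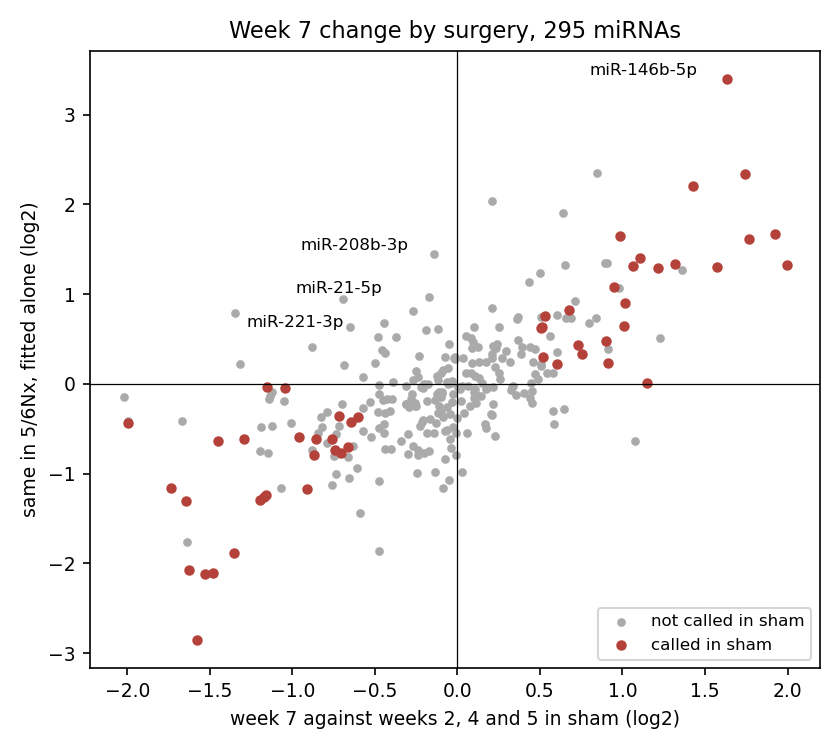
Log2 change of week 7 against weeks 2, 4 and 5 in 5/6Nx against the same in sham, each fitted alone, for 295 miRNAs. Red points passed in sham and lie on the same side of 0 in both surgeries; the 4 named miRNAs differed between the surgeries.

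Whether the week 7 change differed between the surgeries was tested in 1 fit over all 16 libraries. It did for 4 of 306 miRNAs, 1.31% of those tested, and in all 4 the change was higher in 5/6Nx. That direction was not the only one under other settings. DESeq2 gave 5 higher and 1 lower in 5/6Nx, and the fit with all entries gave 3 higher and 1 lower. RLE factors and limma-voom gave 0 lower. Leaving out week 5 sham pool A, or pool B, also gave calls with a lower change in 5/6Nx. For miR-146b-5p the difference was 1.76 ± 0.22 on the log2 scale (SE, adjusted p = 0.00037), so its rise in sham was the smaller one. For miR-21-5p it was 1.13 ± 0.16 (adjusted p = 0.000807), for miR-208b-3p 1.59 ± 0.25 (adjusted p = 0.00144) and for miR-221-3p 1.12 ± 0.22 (adjusted p = 0.0106). In sham those 3 did not pass at week 7. The count was 17 without week 5 sham pool A, 23 without week 5 sham pool B and 2 without week 7 sham pool A. A difference that does not pass is no evidence that the surgeries changed alike.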

How the data were processed

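Small RNA of rat left ventricle was sequenced per the labels' protocols from Trizol RNA with a TruSeq small RNA kit on an Illumina HiSeq. Tools named in the submitters' processing notes are cutadapt, Bowtie and DESeq. No source used here gives versions, the genome build, the strand setting or how reads were shared between entries. The deposited tables, 1 per week, hold raw counts per library, per the file headers. The authors' mapping table gives read numbers and the percent mapped per library. It was used as ranges per surgery and week only, since the letters A and B of the count tables are not tied to the replicate numbers of the labels.

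The weekly tables listed 358 rat miRNAs at weeks 2, 4 and 5 and 325 at week 7. The 317 in all 4 held at least 99.98% of rat miRNA counts and were tested. Entries for loci and for miRNAs of other species stayed out of library sizes. edgeR 4.0.16 (R 4.3.3) was fitted to the 8 sham libraries with TMM factors, its filter by week at a minimum count of 10 (299 miRNAs kept), a mean per week and 4 residual degrees of freedom. Quasi-likelihood F tests were two-sided, and p-values were adjusted by Benjamini-Hochberg over all miRNAs of a fit, with a threshold of 0.05. The SE is the size of the log2 change over the root of F. The common dispersion was 0.0424. The difference between surgeries came from 1 fit of all 16 libraries (306 miRNAs). Ratios between pools used CPM + 1, and principal components log2 CPM with a prior count of 2. Code was tested on simulated counts.

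DESeq2 1.42.0, limma-voom (limma 3.58.1), RLE factors, no filter, all entries, all 16 libraries, the pool letter as a block and leaving out each library were alternatives. Leaving out week 5, week 7 or mirror entries was added after seeing the data. Differences between sham pools A and B correlated at -0.35 between weeks 2 and 4 and at -0.063 to 0.069 between the other couples of weeks. No effect of the letter in the same direction was thus seen across sham weeks. The negative relation between weeks 2 and 4 was not tested. Whether the letters pair libraries in another way was not examined.

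Members, lists and tests were chosen with earlier results of these data known. Named are the 10 most abundant miRNAs; per direction up to 10 of largest change at week 7 that passed with pools outside the earlier range; up to 5 per direction between successive weeks; the 5 steadiest of the 50 most abundant; a fixed set of heart, blood and vessel miRNAs; and list members that passed over 4 weeks, at most 4 per list. Others are named as relatives of these or as examples chosen after their values were seen. The reads carry no molecular identifiers, so the floor of 3 counts covers counting error only.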

Additional observations from a re-analysis of the deposited data

Results flagged for a closer look

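In 4 miRNAs the change of week 7 against weeks 2, 4 and 5 differed between 5/6Nx and sham by a test of the difference itself (edgeR, 306 miRNAs tested). Groups of 2 libraries were too small to test for a single outlying sample within a group. The difference between the 2 week 5 sham pools, which enter this comparison, is described above. For miR-146b-5p the 5/6Nx change exceeded the sham change by 1.76 (log2, adjusted p = 0.00037). The week 7 levels, scaled over all 16 libraries, were 1493 and 1377 CPM in sham and 5766 and 4256 CPM in 5/6Nx, all above the levels of the earlier weeks (209 to 902 CPM). For miR-21-5p the difference was 1.13 (adjusted p = 0.000807), with 4319 and 4262 CPM in the week 7 sham pools and 11991 and 11791 CPM in the 5/6Nx pools. For miR-208b-3p it was 1.59 (adjusted p = 0.00144), with 1330.4 and 1641 CPM in sham and 3882 and 4397 CPM in 5/6Nx. For miR-221-3p it was 1.12 (adjusted p = 0.0106), with 118 and 119.7 CPM in sham and 353 and 289 CPM in 5/6Nx. In these 3 the sham pools of week 7 lay below both 5/6Nx pools of that week.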

How the results depend on the processing

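Counts of calls moved most with the libraries entering a fit, and the causes were not tested. With all 16 libraries in the fit, which then share 1 estimate of the spread, the 43 differences between weeks became 96, the 4 among weeks 2, 4 and 5 became 50, the 53 at week 7 became 85, the 9 at week 4 became 50, the 0 at week 5 became 3, the 7 of week 7 against week 5 became 55 and the 48 of week 7 against week 2 became 77. Without week 5 the counts were 127 between weeks, 97 at week 7, 82 at week 4 and 99 for week 7 against week 2. Of the 97, 52 were among the 53. Without week 7, 0 differed among weeks 2, 4 and 5 and 0 between weeks 2 and 4. DESeq2 gave 24 among weeks 2, 4 and 5, 28 at week 4, 2 at week 5 and 23 for week 7 against week 5. With all entries of the tables, loci and other species included, the counts were 14 between weeks, 0 among weeks 2, 4 and 5, 0 at week 4 and 15 for week 7 against week 5. Without mirror entries 11 passed for week 7 against week 5.

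With 1 library left out at a time the counts ran from 4 to 153 between weeks, from 0 to 124 among weeks 2, 4 and 5, from 3 to 103 at week 7, from 0 to 89 at week 4, from 0 to 68 at week 5, from 0 to 79 for week 7 against week 5, from 14 to 97 for week 7 against week 2 and from 2 to 23 for the difference between surgeries. The lone pool left in such a week was assumed to vary like the others. The pool letter was also used as a block, although no label says that the letters pair libraries. With it, 38 differed between weeks and 56 changed at week 7, 13 at week 4, 6 for week 7 against week 5 and 4 between surgeries.

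At week 7, 32 of 54 calls were higher with RLE factors, 34 of 57 with DESeq2 and 33 of 52 without mirror entries, against 26 of 53. The median change over all miRNAs was -0.073, and 0.070 without mirror entries and 0.044 with all entries. Of 33 named miRNAs called at week 7, none reversed, but 13 of 326 values under settings other than leaving out a library lost the call, in 10 miRNAs and 9 times with all entries, and 83 of 263 lost it with a library left out. Of 35 named and not called, 13 changed sign under some setting. With RLE factors and DESeq2 the log2 change was 0.060 for let-7d-5p, 0.061 for miR-199a-3p, 0.065 for miR-3596b and 0.052 for miR-378a-3p. With all entries it was 0.12 for let-7d-5p, miR-199a-3p and miR-3596b, 0.11 for miR-378a-3p, 0.054 for miR-451-5p, 0.016 for miR-26a-5p and miR-30e-5p and 0.0081 for miR-126a-3p. Without mirror entries it was 0.14 for let-7d-5p and miR-199a-3p, 0.13 for miR-378a-3p, 0.073 for miR-451-5p, 0.038 for miR-26a-5p, 0.034 for miR-30e-5p, 0.032 for miR-126a-3p and 0.019 for miR-208b-3p. It was 0.060 for miR-451-5p without week 5, and 1.7e-05 for miR-3596b with TMM without the 5 most abundant. With single libraries left out it ran from -0.0013 to 0.14 for let-7d-5p, -0.34 to 0.056 for miR-101a-3p, -0.18 to 0.12 for miR-126a-3p, -0.21 to 1.0 for miR-144-3p, -0.33 to 0.0056 for miR-15b-5p, -0.0097 to 0.13 for miR-199a-3p, -0.20 to 0.10 for miR-208b-3p, -0.15 to 0.10 for miR-26a-5p, -0.27 to 0.20 for miR-30e-5p, 0.0032 to 0.14 for miR-3596b, -0.032 to 0.13 for miR-378a-3p, -0.043 to 0.75 for miR-423-5p and -0.20 to 0.21 for miR-451-5p. Week 7 pools had the fewest counts, which limits the precision for miRNAs of low level there.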
